A study of Drosophila melanogaster with 2 samples.

Results

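The genes described are 45 homeobox genes of Drosophila melanogaster listed as outside the Hox cluster and the segmentation cascade. The list does hold exceptions, among them ems, a head gap gene, and inv, the paralogue of engrailed. The genes were chosen by symbol in the Ensembl release 115 annotation of BDGP6 (dm6) from 13945 protein-coding genes on the 6 chromosome arms. All 45 symbols matched 1 gene each. They were examined in chromatin immunoprecipitation followed by sequencing (ChIP-seq) of the transcription factor Single-minded (Sim), carried out on whole embryos of the strain sim-GFP aged 0 to 24 h. Every sample carried a transgene for a Sim fusion to enhanced green fluorescent protein, which was precipitated with an antibody against the tag, although the antibody label itself reads sim. Chromatin was sonicated to 200 to 800 bp. There was 1 group with 2 biological replicates and no second condition, so the comparisons below are between genes, between peaks and between the replicates. Whole embryos mix all cell types and all stages of the collection. Sim is known from few of those cells, so a peak cannot be assigned to a cell type, and whether it came from few or many nuclei cannot be told apart.

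Homeobox genes encode transcription factors that bind DNA through a homeodomain, often at sites around the core TAAT. Outside the Hox genes, many of them give neurons, muscles, eyes and appendages their identity. They are frequently long, stand in gene-poor surroundings and carry enhancers far from their promoters. Sim is a bHLH-PAS factor that directs the fate of the midline cells of the ventral nerve cord. It binds with its partner Tango to the CNS midline element, whose core is ACGTG. The positions at which Sim was found near these genes are peaks that the authors called, and a gene was counted as carrying a peak when the summit, the point of highest enrichment, lay in the gene or within 5 kb either side.

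Of the 45 homeobox genes, 13 (28.9%) carried a peak in the optimal list, which combines both replicates under a threshold on the irreproducible discovery rate (IDR). Among all protein-coding genes the share was 30.0%. The 13 were Lim1, tup, Awh, Dll, otp, Drgx, gsb-n, toy, Optix, ct, hth, zfh1 and zfh2. Together they held 24 of the 2682 optimal peaks, with 7 genes holding 1 peak, 3 holding 2 and 3 holding more. The other 32 held none. In the conservative list, which demands agreement between the true replicates, 11 members carried a peak against 27.8% of all genes. These 11 include inv, which carried no optimal peak. Replicate 1 alone gave 6 members, against 15% of all genes, and replicate 2 alone gave 9, against 21.9%. Those 9 include unpg, which carried no optimal peak either. The share of members, 24.4% in the conservative list and 13.3% in replicate 1, was near that of all genes in each list.

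Long genes carried peaks more often, and the homeobox genes are long, with a median of 15487 bp against 2160 bp for the other protein-coding genes. In the shortest of 20 length bins 13.3% of the other genes carried a peak, and in the longest 52.4% did. At the shares of the bins in which the members fall, 19.6 of the 45 (43.5%) would have carried a peak, against the 13 that did. The same count was 18.4 in the conservative list, 10.4 in replicate 1 and 14.8 in replicate 2, and in each list the members had fewer. All 13 carriers were at least 11247 bp long, the length of Optix. None of the 15 members shorter than 9149 bp carried a peak, where the share of genes of like length would have given 4.90. Of the 30 longer ones 13 did, where that share would have given 14.7. This limit of length was chosen after the values were seen, and none of these differences was tested.

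**Figure D1:**
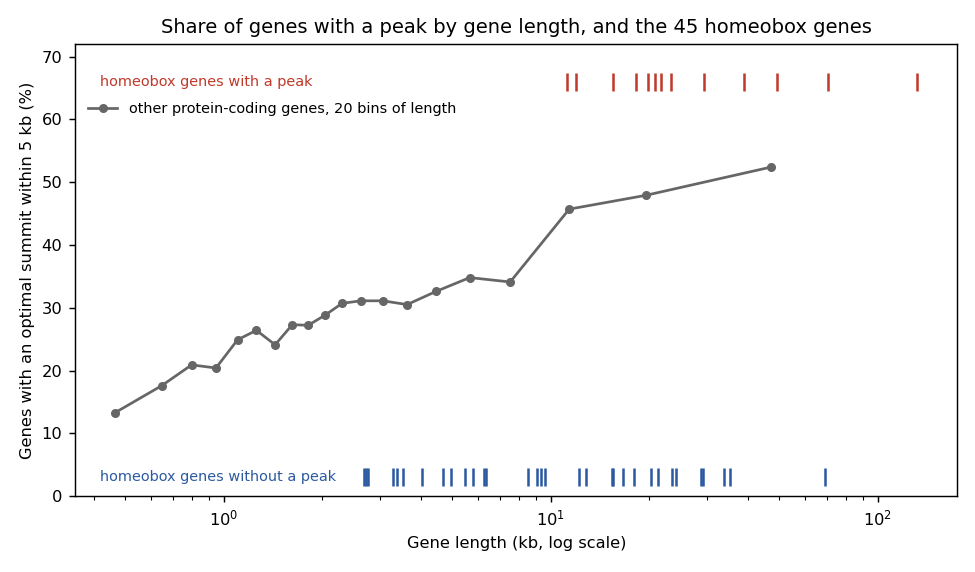
Share of the other protein-coding genes with an optimal summit in the gene or within 5 kb (vertical axis, %) in 20 bins of gene length, drawn at each bin's median length (horizontal axis, kb, log scale). Ticks give the lengths of the 13 homeobox genes with a peak (red, top) and the 32 without one (blue, bottom); every red tick lies at 11.2 kb or more, while the genes of the blue ticks run from 2680 bp (gsb) to 68791 bp (pdm3).

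The position of other genes moved with this count. Another protein-coding gene had a transcription start site (TSS) in the window of most genes of like length, but 25 of the 45 members (55.6%) had none, against 10.2% of genes of like length. Among these 25, 10 carried a peak, where genes of like length and without another TSS would have given 6.09. Among the 20 members with another TSS in the window, 3 carried a peak, where like genes would have given 8.63. Summed over both, like genes gave 14.7, still above the 13 observed. Assigning each summit to the gene with the nearest TSS turned the order, with 15 members against 12 at the share of genes of like length. That comparison matched length alone and not neighbours. Of the 15, 11 also had a summit within 5 kb. For the rest, ems, eyg, caup and mirr, the closest summit assigned lay 8.76 to 29.3 kb from a TSS of the gene. Drgx and gsb-n, which carried a peak, had no summit assigned in this way. The 24 summits lay in 1.37 Mb of windows, a density of 17.5 per Mb, compared with 22.1 in the windows of all protein-coding genes. The split by neighbours was chosen after the values were seen, and its part in the result was not tested.

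Most peaks at these genes lay away from promoters. Of the 24 summits 4 (16.7%) were within 500 bp of a TSS, compared with 40.3% of all optimal summits, and the median distance to the nearest TSS was 5928 bp compared with 979 bp. The 4 were at Awh, Dll, otp and, beside tup, at the neighbouring gene CG10602. The comparison is with all optimal peaks, not with peaks at genes of like length or surroundings. Members had on average 1.24 other coding genes with a TSS in the window, against 2.87 for genes of like length. How far this set the distances was not tested. By their place in the member itself, 12 of the 24 summits lay in introns, 6 upstream, 4 downstream, 1 in coding sequence and 1 in a 3' UTR. The nearest TSS belonged to the member for 20 of the 24, and 6 of the 24 also lay in the window of another protein-coding gene. No share over all optimal peaks was computed for either count, so neither is read as a trait of these genes.

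Signal values, the authors' measure of peak strength, ranged from 8.31 to 202 at the members with a median of 65.0, and from 2.01 to 755 with a median of 75.1 over all optimal peaks. They serve here to describe and rank peaks within a list. Of the 24 peaks, 15 lay below the median of the list, and 4 (16.7%) were among the strongest 25% of the list. These 4 were at otp, Dll, zfh1 and zfh2. Peaks overlapped a peak of both replicate lists in 8 cases (33.3%, against 30.8% of all optimal peaks), of replicate 2 alone in 2 cases (8.33% against 27.4%), of replicate 1 alone in 0 cases (7.38%) and of neither in 14 (58.3% against 34.3%). The conservative list held 17 of the 24 (70.8% against 79.9%). The 8 with support in both replicates belonged to 6 genes, otp, Dll, zfh1, zfh2, hth and ct.

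**Figure D2:**
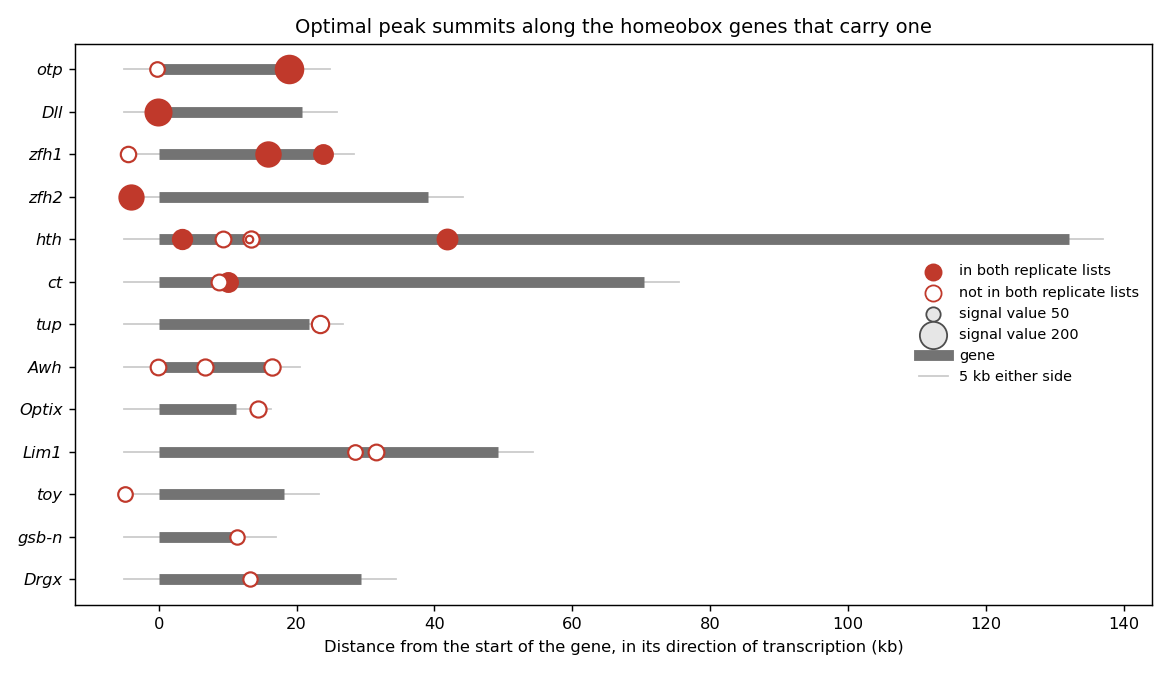
Optimal summits (circles, area growing with signal value) along the 13 homeobox genes that carry one, drawn in the direction of transcription from the start of the gene (horizontal axis, kb); thick bars are genes and thin lines the 5 kb either side. Filled circles, overlapped in both replicate lists, occur at 6 genes, and the 5 hth summits all lie within 41750 bp of its start, in a gene of 132008 bp.

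Both zinc finger homeodomain genes carried a peak among the strongest 25% of the list, where genes of like length would have given 1.00 gene with any peak. With 1 kb either side 1 of the 2 did. zfh1 encodes a repressor that acts in mesoderm, heart and motor neurons, and zfh2 a factor of the nervous system and the wing hinge. The strongest zfh1 peak lay in an intron (3R, 30781629 to 30781932, signal value 157, rank 297), 1477 bp from a TSS of the gene. In the ranked lists, which hold each replicate's peaks before the threshold, its signal value was 70.0 in replicate 1 and 94.2 in replicate 2. Both were above 99.7% of their list. A further zfh1 peak of signal value 90.0 lay downstream, in the 3' UTR of the neighbouring gene wts, with 41.4 in replicate 1 and 48.9 in replicate 2. The last one, of 59.0, lay 4464 bp upstream. It had 19.3 in replicate 1 and 40.4 in replicate 2 and was in neither thresholded list. The zfh2 peak lay 3937 bp upstream on arm 4 (497721 to 498024, signal value 155, rank 305). It was the 1 peak among the 8 supported by both replicates that was higher in replicate 1, at 109 compared with 48.1. The 101 bases centred on the strongest summit of each gene are shown because they are the centres of 2 of the strongest member peaks, on the plus strand of dm6 as read from RefSeq. Capitals mark any match to the 6 patterns searched below, and the only match here is GAGAG at zfh2.
zfh1 intron (chr3R:30781731-30781831): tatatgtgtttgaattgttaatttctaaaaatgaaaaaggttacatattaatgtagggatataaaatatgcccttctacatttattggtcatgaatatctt
zfh2 upstream (chr4:497823-497923): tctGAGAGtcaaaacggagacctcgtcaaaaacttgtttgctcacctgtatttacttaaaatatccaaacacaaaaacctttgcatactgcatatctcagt

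TALE-class genes had 1 of 7 with a peak, where genes of like length would have given 2.88. That gene was hth, which encodes Homothorax, the partner that brings Extradenticle into the nucleus and acts with it as a cofactor of Hox proteins. hth is the longest member (132008 bp) and held 5 summits over 38.4 kb, all in introns. The strongest (3R, 10597666 to 10597969) had a signal value of 101 in the optimal list, 49.9 in replicate 1 and 54.2 in replicate 2. The next (10636102 to 10636405) had 95.0, with 39.6 and 48.1 in the replicates. Both were in both thresholded lists. The remaining ones, with 65.8, 62.0 and 8.31, were in neither, although the ranked lists held a peak at each. The weakest overlapped the peak of 65.8, and their summits lay 199 bp apart and took the same ranked peak in each replicate. Merging them leaves 23 member peaks. The conservative list added 2 hth peaks with no counterpart in the optimal list, 1 within the gene (10537215 to 10537518, 75.0) and 1 upstream (10642961 to 10643264, 37.7). exd, which encodes Extradenticle itself, had no optimal summit within 108689 bp. CUT-class genes had a peak at ct, whose product Cut directs external sense organs, and none at onecut, where genes of like length would have given 0.863. The optimal ct summits lay 1297 bp apart in an intron. The stronger (X, 7618271 to 7618574) had a signal value of 91.0, with 40.0 in replicate 1 and 56.6 in replicate 2, and was in both replicate lists. The other (62.3, with 31.2 and 35.6) was in neither. The conservative list held a further ct peak that spans the start of the gene (X, 7608241 to 7608544, signal value 53.9). The sequences at the strongest hth and ct summits are shown in the same way because these peaks had support in both replicates. None holds any of the 6 patterns within 50 bp of the summit, so they print without capitals.
hth intron, first (chr3R:10597768-10597868): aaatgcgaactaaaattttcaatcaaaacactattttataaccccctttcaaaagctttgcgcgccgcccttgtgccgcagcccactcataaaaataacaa
hth intron, second (chr3R:10636204-10636304): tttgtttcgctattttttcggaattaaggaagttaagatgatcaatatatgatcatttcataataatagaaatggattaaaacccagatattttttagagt
ct intron (chrX:7618373-7618473): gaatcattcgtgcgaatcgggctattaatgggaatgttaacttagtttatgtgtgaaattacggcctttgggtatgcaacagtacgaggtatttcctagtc

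LIM-homeodomain genes had 3 of 5 with a peak, where genes of like length would have given 2.48. Members of this class combine into codes that set the identity of motor neurons and interneurons. Lim1 had a pair of intronic peaks (X, 8774098 to 8774401 and 8777114 to 8777417) with signal values of 61.7 and 52.2. The first had 23.3 in replicate 1 and 42.0 in replicate 2, and the second 20.9 and 31.3. Only the first was in a replicate list, that of replicate 2. The peak nearest tup, the Islet gene, had a signal value of 76.4 (35.7 and 39.0 in the replicates) but lay 119 bp from a TSS of CG10602, in an intron of that gene and 1709 bp beyond the end of tup. It was in neither replicate list. Awh, known from abdominal histoblasts, carried 3 peaks of nearly equal signal value spread along the gene, 61.1 at 72 bp before the gene's start, 64.9 in an intron and 66.7 downstream (3L, 3862433 to 3862736). Their signal values in replicate 1 were 27.0, 35.2 and 28.5, and in replicate 2 they were 35.8, 38.0 and 39.4. The conservative list held all 3, and a replicate list held only the last, that of replicate 2. ap, which sets the dorsal compartment of the wing, and Lim3, another motor neuron factor, had no peak. The strongest Awh summit is shown for its GAGAG match, 1 of 3 among the member summits.
Awh downstream (chr3L:3862535-3862635): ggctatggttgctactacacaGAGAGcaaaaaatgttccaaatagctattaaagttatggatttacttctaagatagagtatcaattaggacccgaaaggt

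Dll and otp held the strongest member peaks. Dll encodes Distal-less, required for limbs, and its peak lay 112 bp before the start of the gene (2R, 24814558 to 24814861, signal value 179.6, rank 235). Replicate 1 gave 73.4 there and replicate 2 gave 96.3. otp encodes Orthopedia, a paired-like factor known from brain and hindgut. Its strongest peak lay in coding sequence (2R, 20884429 to 20884732, signal value 202, rank 182), 18833 bp into the gene, with 84.6 in replicate 1 and 115 in replicate 2. The nearest TSS was that of Cib2, at 4651 bp. The second otp peak, of 52.0, was 295 bp before the start of the gene and had 28.1 in replicate 1 and 18.2 in replicate 2. It was in neither replicate list. GC content in the 101 bp around summits was 69.3% at Dll and 61.4% at each otp summit, the highest 3 values among the members, where the median was 38.1%.

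Most genes of the ANTP class had no peak. Of the 14 members of NK-like and other ANTP-class genes only Dll carried one, where genes of like length would have given 5.53. The class includes exex and bsh, known from neuron identity, lbe, lbl and slou, from muscle and heart, H2.0, from visceral mesoderm, and B-H1 and B-H2, from eye and sense organs. With 10 kb either side 4 of the 14 did, adding exex, C15 and bsh, so this count rests on the window. The count at genes of like length was not computed for this class at 10 kb. Over all members it rose from 19.6 with 5 kb to 23.9 with 10 kb. The summit closest to each added gene had its nearest TSS in another gene. This was Srp9 at 2714 bp for exex, sp3 at 575 bp for C15 and Dus3 at 116 bp for bsh. Their signal values were 7.95, 242 and 98.5. inv, the paralogue of engrailed, had a peak within the gene in the conservative list alone (2R, 11500497 to 11500800, signal value 58.9). unpg had a peak in the replicate 2 list alone (2R, 9192021 to 9192300, 39.8 in that list). The neighbouring genes lbl, lbe, C15 and slou span 147 kb. They enclosed 1 optimal summit (3R, 21520298 to 21520398), of signal value 242 and in both replicate lists, which lay 575 bp from a TSS of sp3 and 7.54 kb from C15. No summit lay between B-H2 and B-H1, which stand in an interval of 192 kb free of optimal summits. It ranked 108 from the longest among the 2676 intervals between neighbouring summits, whose median was 17.4 kb.

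Paired-like and Pax genes, many of them known from eye and brain, had 4 of 11 with a peak. Beyond otp these were Drgx among the 6 paired-like genes, and gsb-n and toy among the 5 Pax genes, where like genes would have given 2.76 and 2.07. These peaks had signal values below the median of the list. Drgx had a signal value of 49.7 in an intron (2L, 3675845 to 3676148), with 19.8 in replicate 1 and 31.4 in replicate 2. gsb-n, the neural member of the gooseberry pair, had 50.2 in its 3' UTR (2R, 25040749 to 25041052), with 19.5 and 32.1, while its partner gsb had none. toy, which acts above ey in eye specification, had 52.0 at 4830 bp upstream (4, 984743 to 985046), with 29.0 in replicate 1 and 21.1 in replicate 2. This lay just inside the 5 kb limit. With 10 kb either side the best peak of toy had 125, but its nearest TSS belonged to another gene. eyg, another eye gene, had a summit of 72.8 just outside the 5 kb limit, at 5119 bp. The 3 peaks were in neither replicate list nor the conservative list. ey, Rx, hbn, al and Ptx1 had none. Of the 2 SINE genes, where genes of like length would have given 0.934 with a peak, Optix had a peak of 65.2 (26.1 and 36.9 in the replicates) lying 4727 bp from its nearest TSS, and so, a gene of eye determination, had none. The POU-class genes acj6 and pdm3, known from olfactory neurons, had none, where genes of like length would have given 1.05.

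**Figure D3:**
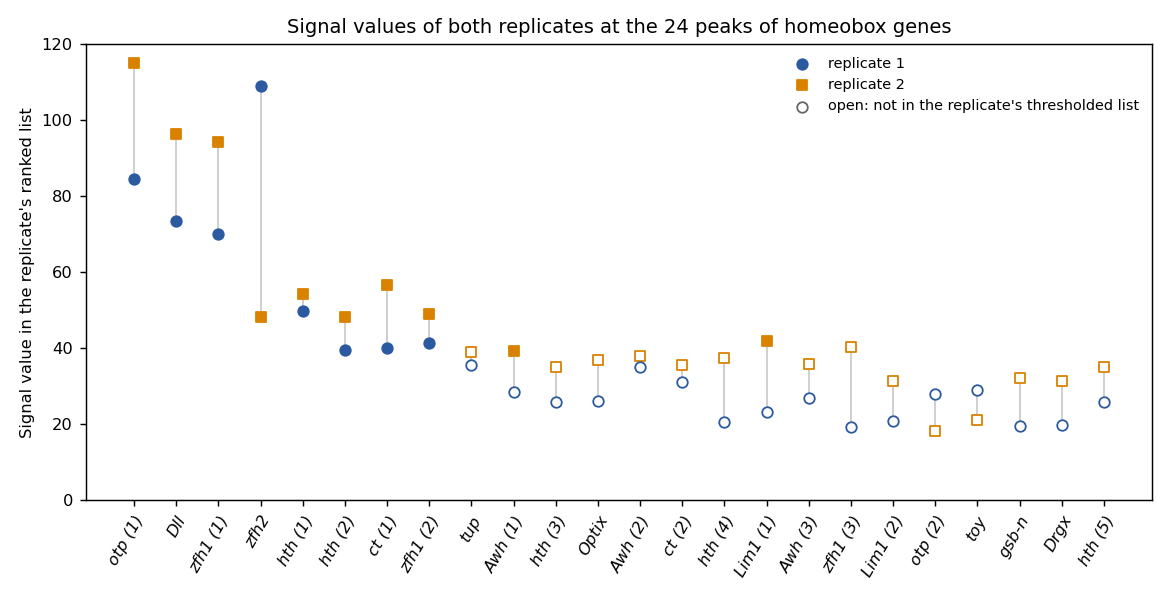
Signal values in the ranked lists of replicate 1 (circles) and replicate 2 (squares) at the 24 peaks of homeobox genes, in order of signal value in the optimal list and numbered within a gene (horizontal axis); filled symbols were in that replicate's thresholded list. Replicate 2 was higher at 21 peaks and replicate 1 at zfh2, toy and the second otp peak.

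At all 24 peaks the ranked lists of both replicates held an overlapping peak. In replicate 1 the values ran from 19.3 to 109 with a median of 28.8, and in replicate 2 from 18.2 to 115 with a median of 38.5. Replicate 2 was higher at 21 of 24 (87.5%), compared with 71.3% of the 2649 optimal peaks found in both ranked lists. The depth of the replicates is unknown and each list has its own scale, so the size of this difference is not read as binding. Both member peaks on arm 4, at zfh2 and toy, were higher in replicate 1. Of the 9 arm 4 peaks that both ranked lists held, 3 were.

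Below the threshold, sites that both replicates ranked were common at members and at other genes alike. Sites were taken as shared when summits of the ranked lists lay within 50 bp, and the best one was that whose lower percentile was highest. All 45 members had such a site, as did 12196 of the 13900 other protein-coding genes, which are mostly shorter. The lower percentile of the best site had a median of 98.0 in the 13 carriers and of 76.1 in the 32 others. The carriers were defined by peaks called from the same replicates, so their higher median is not separate support. In the 9723 other protein-coding genes with no optimal peak the median was 55.5. Their median length was 1925 bp, against 9462 bp for the 32 members, so these medians are not matched for length. At or above the 95th percentile of both lists lay 10 members (22.2%), against 31.0% at the shares of genes of like length. Among the 32 without a peak, eyg was the only such gene, with signal values of 24.9 in replicate 1 and 28.4 in replicate 2. Close below were ems, a head gap gene, with 24.8 and 26.0, and ap with 21.9 and 23.0. At the other end achi and vis, neighbouring genes known from spermatogenesis, had percentiles of 19.8 and 34.2, and of 43.8 and 35.1, in replicates 1 and 2. Ranked peaks in the windows averaged 27.4 per member in replicate 1 and 26.8 in replicate 2, against 26.2 and 24.3 for genes of like length. scro, a brain factor gene, had only 9 and 3 although it is 33875 bp long, and its nearest optimal summit was 1845287 bp away. For ap, with 29 and 35 ranked peaks, the nearest was 389266 bp away.

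**Figure D4:**
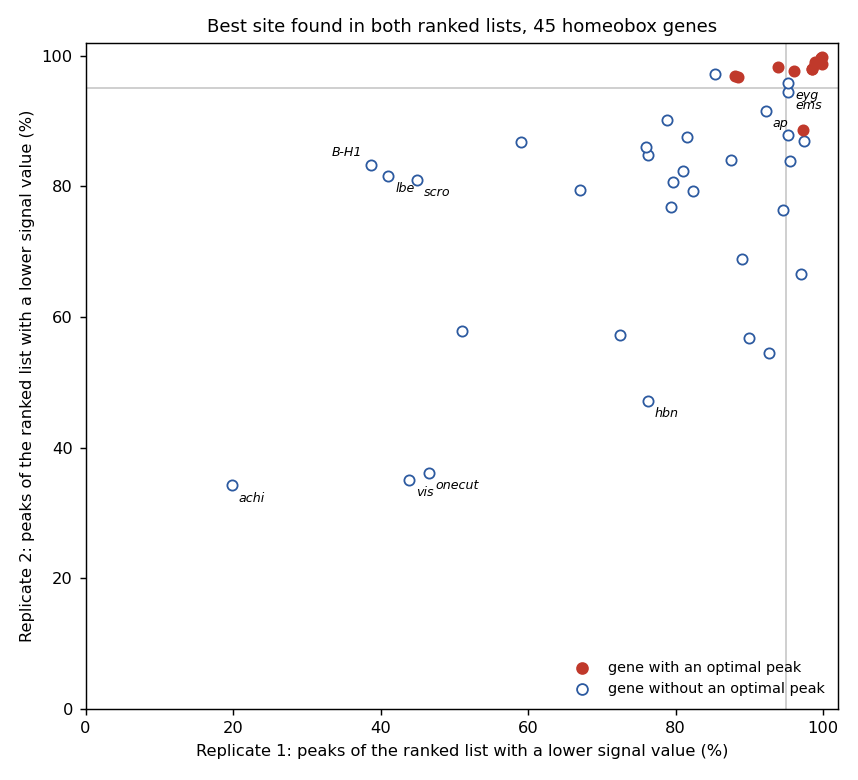
Best site shared by the ranked lists in or within 5 kb of each of the 45 homeobox genes, as the share of the list with a lower signal value in replicate 1 (horizontal axis, %) and replicate 2 (vertical axis, %); filled points carry an optimal peak and grey lines mark 95%. Only eyg among the open points lies beyond both lines, and achi, vis and onecut lie lowest.

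For the patterns that occurred, shares at these summits were near those of all optimal summits. ACGTG, the midline element core, was searched on both strands within 50 bp of the summit and was present at 0 of 24. A count of 0 allows a share of up to 12.5% (3 counts, counting error only), and 7.27% of all optimal summits and 11.2% of windows of equal length centred on protein-coding TSS hold it. The homeodomain pattern TAATTA was present at 2 of 24 (8.33%, compared with 9.06% of all summits and 2.99% of TSS windows), at the first Lim1 peak and the upstream zfh1 peak. GAGAG, bound by GAGA factor, was present at 3 (12.5%, compared with 12.8% and 12.7%), at zfh2, Drgx and the downstream Awh peak. GCCAT, bound by the Polycomb recruiter Pho, was present at 4 (16.7%, compared with 14.2% and 16.8%), at the upstream Awh peak, the strongest otp peak, the Optix peak and the weakest hth peak. The TALE pattern TGACAG and the E-box CACGTG, which contains ACGTG, were at 0 of 24 (2.76% and 1.04% of all summits). With 24 summits a single match moves a share by 4.17 percentage points. GC content had a median of 38.1% (21.8% to 69.3%), compared with 33.7% over all optimal summits and 43.6% at TSS.

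Other homeobox genes, a list of 39 with the Hox genes, segmentation genes and further NK, paired-like, SINE and POU genes, served as the rest of the class. Of these 14 (35.9%) carried a peak, where genes of like length would have given 15.4. The conservative list gave 12, where like genes would have given 14.3. In the optimal list Antp held 6 peaks (strongest 130), NK7.1 held 4 (128), and lab and cad 3 each. The strongest peak was near tin, a heart regulator, with 183. en, the partner of inv, had none. Replicate 1 gave 8 of the 39, where like genes would have given 8.07, and replicate 2 gave 6, where they would have given 11.5. The difference between the 39 and the 45 was not tested. Between the Iroquois genes ara, caup and mirr, which prepattern sense organs and span 129.6 kb, lay 3 summits of signal value 61.0, 80.1 and 62.9. None was in both replicate lists, and the closest were 8.76 kb from mirr and 17.1 kb from caup, so no Iroquois gene carried a peak.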

How the data were processed

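Peak lists of Sim ChIP-seq in dm6 came from 2 biological replicates of whole embryos. Per the labels these are separate samples. The authors deposited for each peak a signal value, a scaled IDR score and a −log10 q-value, which are the authors' own values. The aligner, the peak caller and the scale of the signal value were not given in the sources used. The assembly is dm6 per the deposited READMEs. A control experiment named in the labels was not analysed here. The lowest score in each of the 4 thresholded lists was 830, an IDR of 0.0100. Read counts were not used here, so depth is unknown. Summits were column 2 plus column 10. Genes, TSS and windows came from Ensembl release 115, bases from RefSeq Release 6. The expected count at genes of like length is the sum over members of the share with a peak among the other protein-coding genes of the same bin, of 20 equal bins of length. Overlap with another list means at least 1 bp. Counting was tested on simulated data. No statistical test was made, because the members and lists were chosen with earlier results of these data known and there is 1 group. The members named with full values are the 12 with the strongest best peaks, and every peak is given for those with 3 or more. Drgx and the further peaks of Lim1, otp and ct were named after their values were seen. Alternatives were other windows, lists, overlaps, comparison genes and motif windows. Computations used Python 3.11.15 and figures matplotlib 3.10.9.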

Additional observations from a re-analysis of the deposited data

How the results depend on the processing

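Of 123 alternatives computed, 106 kept the value. For counts this meant within 1.5 times, and for shares within the exact 95% binomial interval. A best signal value had to be unchanged. Settings that left a named member without a peak, such as zfh2 with the gene body alone, were not among the 123. The number of members with a peak, 13, was 8 with the gene body alone, 7 with only the peaks above the median signal value, and 6 to 9 with 1 replicate left out. Nearest-TSS assignment gave 15 and 10 kb either side 18. Members stood below the count at genes of like length in every list and window computed (11.1, 14.9 and 23.9 for the gene body, 1 kb and 10 kb). They stood above it with the nearest TSS. With only the peaks above the median signal value, the count at genes of like length was 12.8. The 24 peaks became 14 with the gene body alone, 37 with 10 kb, and 10 to 11 with 1 replicate left out. TAATTA was at 0% to 9.09% of summits with 1 replicate left out and GAGAG at 0% within 25 bp of the summit. ACGTG reached 8.33% within 100 bp, a wider window for which no share over all optimal summits was computed. By family, the ANTP class, Pax, SINE, TALE and zinc finger counts moved by over 1.5 times with the window, and the LIM count was 2 with 1 kb. With 10 kb the best peak of tup was 128 in place of 76.4. That of toy was 125 in place of 52.0, with the nearest TSS in another gene. The split by neighbours (14.7 expected), members with no other TSS (10) and leaving out scro and ap (13) were chosen after seeing the data. Why values moved was not tested. Depth is unknown, and 24 summits limit every share. No paired analysis was possible because there is only 1 group.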
